A study of Sus scrofa with 4 samples.

Results

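The CXCL14 and CXCL12 stromal fibroblasts of the pig (Sus scrofa) meniscus were 1044 of 27727 cell barcodes with 200 or more detected genes, or 3.77% of the cells, in all 4 libraries of the study. A cell was taken as a member where the molecule counts (UMIs, unique molecular identifiers) of CXCL14, CXCL12 and MME summed to 5 or more. It also had to hold at most 1 UMI of PI16 and MFAP5, at most 1 of the endothelial genes PECAM1, PLVAP and VWF, at most 1 of the mural genes ACTA2, MYH11 and RGS5, and at most 2 of the macrophage genes C1QA, C1QB and C1QC. The levels of these genes therefore chose the cells and are given below as a description, with no test. The members were 398 cells of the lateral red zone, 582 of the medial red zone, 57 of the lateral white zone and 7 of the medial white zone.

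The meniscus is the fibrocartilage pad of the knee, with a vascularised outer red zone and an inner white zone without vessels. Single cells were sequenced by a droplet 3' method in 4 libraries: lateral meniscus red zone, medial meniscus red zone, lateral meniscus white zone and medial meniscus white zone. Each zone and each meniscus thus had 2 libraries, and the labels name no treatment. Per the labels, the meniscus was freed from the synovium and divided by zone before digestion, first with pronase and later with collagenase P. No animal, breed, sex or age is named. The p-values measure the spread of class differences between these libraries, which may be technical and is partly pooled over genes. Where a pair of levels, shares or numbers of cells or UMIs is given without a place, the lateral library comes before the medial one.

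CXCL12 is a chemokine that holds and attracts cells bearing its receptor CXCR4, and in bone marrow it is made by reticular stromal cells. CXCL14 is a related chemokine of skin and connective tissue with no single agreed receptor. MME (CD10, neprilysin) is a peptidase of the cell surface that cuts small signalling peptides and is carried by many stromal cells. In human synovium, fibroblasts below the lining that surround vessels are known to express CXCL12.

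The red zone libraries, lateral and medial, contained 5753 and 6840 barcodes with 9666319 and 11878284 UMIs, and those of the white zone contained 7382 and 7807 barcodes with 13719381 and 14902274 UMIs. Stromal fibroblasts had a median of 1680.5 and 1628.5 UMIs in the red zone and 1998 and 1606 UMIs in the white zone, against 1472, 1490, 1495 and 1617 UMIs over all cells of the same 4 libraries in the same order. Between 10 and 20 barcode sequences were shared by each pair of libraries, and none of the shared barcodes was a stromal fibroblast in both. The doublet caller Scrublet marked 128 cells of the lateral red zone, 2 of them stromal fibroblasts, and 0 cells in the other 3 libraries, where it cannot be said to have worked.

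CXCL14 made up most of the signal that defined the cells. It supplied 75.9% of the CXCL14, CXCL12 and MME molecules, CXCL12 supplied 21.5% and MME 2.62%. CXCL14 was detected in 1018 of the 1044 cells, CXCL12 in 780 and MME in 189. Both chemokines were found in 754 cells and all 3 genes in 148, while 235 cells held CXCL14 alone and 26 held CXCL12 without CXCL14. CXCL14 reached 5 UMIs unaided in 749 cells, CXCL12 in 201 and MME in 7. The class is thus mainly a CXCL14 class in which CXCL12 is common and MME is found in a minority.

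Levels are given as CPM, the UMIs of a gene divided by all UMIs of the same cells and scaled to a common total. CXCL14 (ENSSSCG00000014310; Sscrofa11.1 chromosome 2, 137803988 to 137813118) stood at 4917 and 5150.5 CPM in stromal fibroblasts of the lateral and medial red zone. Mural cells, the smooth muscle cells and pericytes of vessels, had 402 and 374 CPM, and the 24 T cells of each library had 996 and 346 CPM from 37 and 18 UMIs. CXCL12 (ENSSSCG00000034973; chromosome 14, 91516383 to 91543857) stood at 1405 and 1623 CPM in stromal fibroblasts, against 241 and 280.1 CPM in mural cells and 111 and 129.7 CPM in endothelial cells. MME (ENSSSCG00000011723; chromosome 13, 95018395 to 95122977) stood at 186 and 191 CPM in stromal fibroblasts. It was at 40.4 and 12.6 CPM in fibroblasts with PI16 and MFAP5 and at 12.2 and 6.69 CPM in endothelial cells. The levels of these genes were close between the red zone libraries and above every other class, as the selection on them requires.

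LUM, APOE and C4A were named as further markers of these cells but were not used to choose them. LUM (chromosome 5, 91748871 to 91756381) encodes lumican, a small proteoglycan that spaces collagen fibrils, and stood at 2942 and 2689.9 CPM in stromal fibroblasts. In PI16 and MFAP5 fibroblasts it was close in the lateral library, at 2657 CPM, and lower in the medial one, at 1544 CPM. It was lower in other fibroblastic cells, at 577 and 503 CPM. APOE (chromosome 6, 51373113 to 51375333), a carrier of cholesterol and other lipids, stood at 3131 and 1969 CPM in stromal fibroblasts, against 859 and 741 CPM in mural cells and 295 and 322 CPM in myeloid cells. C4A (chromosome 7, 24068019 to 24083060), a complement component, stood at 594 and 509 CPM in stromal fibroblasts. In PI16 and MFAP5 fibroblasts C4A was at 687 CPM in the lateral and 78.5 CPM in the medial red zone, so for this gene the classes overlapped. These 3 genes were part of the label, so their levels are a description.

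**Figure D1:**
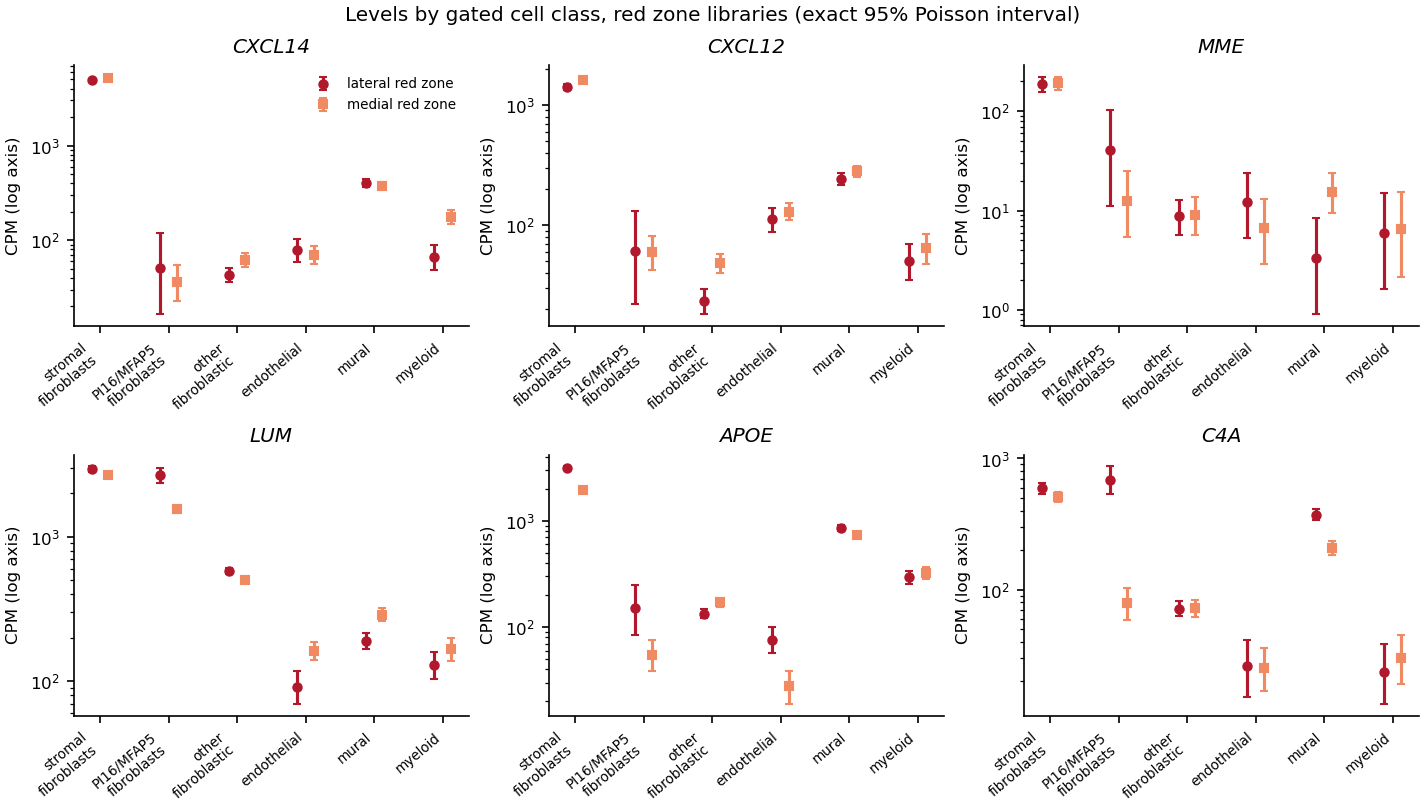
Levels of the 3 genes that chose the cells and of LUM, APOE and C4A in 6 gated cell classes of the red zone libraries, in CPM on a log axis with exact 95% Poisson intervals; circles are the lateral and squares the medial library. CXCL14, CXCL12, MME and APOE are highest in stromal fibroblasts in both libraries, LUM is close to the PI16 and MFAP5 fibroblasts in the lateral library, and C4A is not separated from them there.

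The cells carried fibroblast genes, with lower summed endothelial, myeloid and mural markers than over all cells. The 6 fibroblast markers, the collagens COL1A1, COL1A2 and COL3A1 with DCN, LUM and PDGFRA, summed to 45964 and 52771 CPM in stromal fibroblasts of the red zone, with all 6 detected. This sum was below the 56451 and 62952 CPM over all cells. It was 96028 and 117252 CPM in PI16 and MFAP5 fibroblasts. Other fibroblastic cells, partly chosen on COL1A1, COL1A2 and DCN, had 127723 and 132399 CPM. The 8 endothelial markers summed to 40.5 and 52.2 CPM in stromal fibroblasts, against 700.0 and 795 CPM over all cells, and PLVAP, KDR and EGFL7 were at 0 in the lateral library. The 9 myeloid markers summed to 39.1 and 47.3 CPM, against 2010 and 1710.3 CPM over all cells, with LYZ at 0 in both libraries. The 8 mural markers summed to 389 and 219.6 CPM, against 2346 and 2026 CPM over all cells, with DES at 0. The 6 measured Schwann cell markers summed to 394 and 527 CPM in stromal fibroblasts, against 162 and 245 CPM in PI16 and MFAP5 fibroblasts, 285 and 296 CPM in other fibroblastic cells and 318 and 410.3 CPM over all cells. ERBB3, a neuregulin receptor, made up 347 and 513 CPM of the sum in stromal fibroblasts, and CDH19 and SOX10 were at 0 in the lateral library. The part of these markers in the results was not tested. Adipocyte markers summed to 1.35 and 8.86 CPM and the 2 measured mast cell markers to 0 and 2.95 CPM. The 8 chondrocyte markers summed to 174 and 91.6 CPM in stromal fibroblasts of the red zone, against 678 and 309 CPM over all cells. Low vascular, mural and myeloid sums are in part set by the selection, which capped 3 genes of each list.

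Stromal fibroblasts were 6.96% of lateral red zone cells (exact 95% binomial interval 6.32 to 7.66) and 8.53% of those from the medial red zone (7.88 to 9.22). White zone shares were 0.772% for the lateral (0.585 to 0.999) and 0.0897% for the medial library (0.0361 to 0.185). The red zone thus held 980 of the 1044 cells, and its shares did not overlap with those of the white zone. As a share of all cells gated as fibroblastic they made up 18.6% and 23.3% of the red zone libraries, against 0.881% and 0.105% of the white zone libraries. With 2 libraries per zone the exact permutation test cannot go below p = 0.33, so no test was made. The intervals cover counting error only, and dissection and digestion can also set such shares. Thinning every cell to 1000 UMIs gave 6.15% and 8.25% for the red zone libraries, against 0.489% and 0.0437% for the white zone libraries. Without thinning, the same cells of 1000 or more UMIs gave 7.86% and 9.59% in the red zone and 0.896% and 0.0874% in the white zone.

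**Figure D2:**
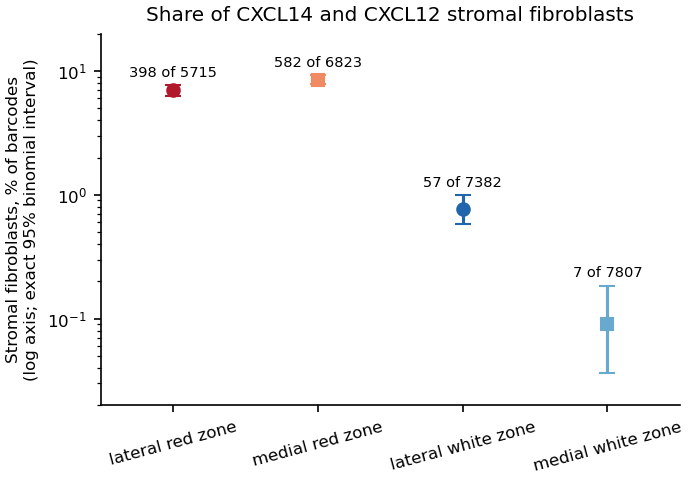
Stromal fibroblasts as a percentage of barcodes with 200 or more genes in each library, on a log axis with exact 95% binomial intervals; the number of cells is printed above each point. The red zone libraries sit at 6.96% and 8.53%, above the white zone libraries at 0.772% and 0.0897%.

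In number of cells, the threshold of 5 UMIs cut through a continuum rather than a gap. In all, 1731 cells reached it before the other limits, of which 493 held more than 1 UMI of PI16 and MFAP5, 161 more than 1 of the mural genes, 85 more than 1 of the endothelial genes and 25 more than 2 of the macrophage genes. A cell could fail on several of these. In 136 cells, 29 lateral and 107 medial ones of the red zone, PI16 and MFAP5 also reached 5 UMIs. Whether these were intermediate cells or doublets was not tested. Just inside, 53 lateral and 85 medial red zone cells held exactly 5 UMIs, with LUM at 2487 and 1808 CPM and CCL19 at 912 and 1255 CPM. Just outside, 73 and 92 cells held 4 UMIs, with LUM at 2405 and 2275 CPM and CCL19 at 897 and 1356 CPM. Some other genes differed more between these bands. APOE stood at 1896 and 1152 CPM just outside and at 2878 and 1436 CPM just inside. IGFBP2 and IL6 were also higher just inside, and COL1A1 was lower. CFD was lower just inside too, at 225 and 404 CPM, against 379 and 510 CPM just outside. Cells with 10 or more UMIs had CCL19 at 2635 and 2038 CPM.

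Stromal fibroblasts of the red zone were set against the fibroblast classes of the same libraries. The first was the fibroblasts with 5 or more UMIs of PI16 and MFAP5 and at most 1 of CXCL14, CXCL12 and MME, genes of adventitial fibroblasts around vessels. They were 49 lateral and 253 medial cells with 98992 and 637288 UMIs, and 0 white zone cells. In the lateral sum of this class 1 UMI is 10.1 CPM, so low values there rest on few UMIs. The second was other fibroblastic cells, 1698 lateral and 1658 medial ones, with at most 1 UMI of each of these gene sets and 5 or more of COL1A1, COL1A2 and DCN. Both passed the same limits on vascular, mural and macrophage genes. Counts were summed per library and class and tested with edgeR's quasi-likelihood test with the library as a block. A call means a Benjamini-Hochberg adjusted p below 0.05 over all tested genes. Both comparisons use the same 2 stromal sums, so they are not independent. Where 1 gene or list has a pair of log2 fold changes or medians, the comparison with PI16 and MFAP5 fibroblasts comes first.

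Against PI16 and MFAP5 fibroblasts, 1104 of 7223 tested genes were called (15.3%), 582 higher (8.06%) and 522 lower (7.23%) in stromal fibroblasts. Against other fibroblastic cells, 1386 of 7219 genes were called (19.2%), 735 higher (10.2%) and 651 lower (9.02%). DESeq2 called 401 and 490 genes. Of the called genes 1074 of 1104 and 1385 of 1386 had the same direction in both libraries. The calls come from these same 2 libraries, so such agreement is largely built in and is no further support. The genes named below are those the selection did not use. LUM, APOE and C4A, part of the label but not of the selection, stay in these totals. Counts in the gene lists below had no list test. They are to be read beside the shares of all tested genes, 8.06% higher and 7.23% lower, then 10.2% and 9.02%.

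Genes of chemokines and inflammatory mediators were among the largest rises in stromal fibroblasts. CCL19 (ENSSSCG00000010966), a chemokine that attracts CCR7-bearing dendritic cells and T cells, stood at 2071 and 1735 CPM in stromal fibroblasts, against 30.3 and 26.7 CPM in PI16 and MFAP5 fibroblasts. It was higher in both libraries, by 6.40 ± 0.42 on the log2 scale (SE, 2 libraries per class; edgeR adjusted p = 3.81e-12). The PI16 and MFAP5 values rest on 3 and 17 UMIs. Other fibroblastic cells had 58.6 and 172 CPM of CCL19, and stromal fibroblasts were higher by 4.07 ± 0.29 (adjusted p = 1.47e-11). Mural cells, excluded by the selection, had still more, at 3535 and 3507 CPM. The summed mural markers were 389 and 219.6 CPM in stromal fibroblasts, against 455 and 805 CPM in PI16 and MFAP5 fibroblasts and 212 and 285 CPM in other fibroblastic cells. CCL19, C7 and COL4A1 were all higher in mural cells than in stromal fibroblasts, and the part of mural RNA in their rises was not tested.

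IL6 (ENSSSCG00000020970), a cytokine of stromal cells in inflammation, stood at 494 and 201 CPM in stromal fibroblasts, against 30.3 and 7.85 CPM in PI16 and MFAP5 fibroblasts and 32.7 and 13 CPM in other fibroblastic cells. Its rise was 4.52 ± 0.34 over the PI16 and MFAP5 fibroblasts and 3.77 ± 0.19 over the other fibroblastic cells (SE, 2 libraries; edgeR adjusted p = 7.41e-11 and 1.45e-14). In PI16 and MFAP5 fibroblasts IL6 had only 3 and 5 UMIs. The classes did not overlap, and within each library mural cells lay between them, at 219.7 and 168 CPM. CCL2, which attracts monocytes, stood at 333 and 258 CPM in stromal fibroblasts, against 50.5 and 14.1 CPM and 32.3 and 70.1 CPM in these classes, and rose by 4.05 and 2.44. CXCL2, a chemokine for neutrophils, stood at 1791 and 1369.6 CPM in stromal fibroblasts, against 374 and 111 CPM and 289.6 and 233 CPM, and rose by 3.13 and 2.46. It was also high in endothelial cells, at 1670.3 and 1063 CPM.

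Of the 6 tested chemokine genes besides CXCL12 and CXCL14, 5 rose in each comparison (CXCL2, CXCL9, CXCL10, CCL2 and CCL19) and 0 fell. Their median log2 fold change was 3.71 over the PI16 and MFAP5 fibroblasts and 2.45 over the other fibroblastic cells, beside medians of 0.02 and -0.0035 over all tested genes. CXCL9, an interferon-induced chemokine, had 69 UMIs in stromal fibroblasts and 1 in PI16 and MFAP5 fibroblasts, a ratio of 28.9 (exact 95% counting interval 5.02 to 1159). Its call over the other fibroblastic cells was lost with DESeq2 (adjusted p = 0.543). Of 11 tested inflammatory NF-kappaB targets 8 rose and 0 fell in each comparison, with medians of 1.53 and 1.26. Among them were PTGS2, the inducible cyclooxygenase, by 2.51 and 1.81, the interleukin 1 receptor IL1R1 by 2.14 and 2.07, and the transcription factor CEBPB by 1.73 over the PI16 and MFAP5 fibroblasts. TNFSF15, a TNF family ligand, stood at 109 and 55.1 CPM in stromal fibroblasts, against 3.03 and 4.07 CPM in other fibroblastic cells. Among genes with a symbol, outside the selection and with a mean of 20 CPM or more, it had the largest rise called in that comparison, 4.35 ± 0.33 (SE, 2 libraries; edgeR adjusted p = 4.2e-11).

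The receptors of CXCL12 were found elsewhere or at modest levels. CXCR4 stood at 2.70 and 8.86 CPM in stromal fibroblasts, with 2 and 9 UMIs, against 2.69 and 12.2 CPM in other fibroblastic cells, with no call (edgeR adjusted p = 0.762). Myeloid cells had 631 and 628 CPM of CXCR4. ACKR3, a scavenging receptor of CXCL12, stood at 188 and 160.5 CPM in stromal fibroblasts, against 172 and 80 CPM in PI16 and MFAP5 fibroblasts and 122 and 96.6 CPM in other fibroblastic cells. It rose by 0.80 ± 0.25 and 0.54 ± 0.18 (SE, 2 libraries; edgeR adjusted p = 0.0259 and 0.0304), and both calls were lost with DESeq2 and without the library block. Of 6 tested CXCL12 axis genes 1 rose over the PI16 and MFAP5 fibroblasts and 3 over the other fibroblastic cells (ACKR3, DPP4 and MMP2), and 0 fell. In edgeR without the library block the calls of MMP2 and DPP4 were lost too (adjusted p = 0.0676 and 0.0738), and that of DPP4 also with DESeq2 (0.146). MMP2 and DPP4 are proteases that can cut CXCL12.

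Among cell surface peptidases, the group to which MME belongs, calls went both ways. ANPEP, an aminopeptidase, stood at 76.9 and 83.7 CPM in stromal fibroblasts, against 60.6 and 18.8 CPM in PI16 and MFAP5 fibroblasts and 47.8 and 43.6 CPM in other fibroblastic cells, and rose by 1.70 and 0.69. FAP, the fibroblast activation protein, stood at 277 and 171 CPM in stromal fibroblasts, against 586 and 507 CPM and 393 and 282 CPM in these classes, and was lower at -1.27 and -0.75. In all, 1 of 6 tested peptidases rose and 1 fell against the PI16 and MFAP5 fibroblasts, and 2 rose and 2 fell against the other fibroblastic cells. The calls of ANPEP, FAP, NT5E and DPP4 against the other fibroblastic cells were lost with DESeq2 (adjusted p from 0.0777 to 0.458). In edgeR without the library block those of ANPEP, FAP and DPP4 were lost too (adjusted p = 0.106, 0.0857 and 0.0738). The ANPEP call was also lost in edgeR without the count filter (adjusted p = 0.0559) and with 10 or more UMIs of the selecting genes (0.0627). In cells of 1500 or more UMIs it was lost as well (0.0838).

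Complement genes were higher, and 0 of the 8 tested fell in either comparison. Over the other fibroblastic cells all 8 rose (C2, C3, C7, CFB, CFD, CFI, SERPING1 and CLU; median 1.28), and over the PI16 and MFAP5 fibroblasts 5 rose (median 1.32). CFD, complement factor D, stood at 298 and 617 CPM in stromal fibroblasts, against 32.7 and 55.8 CPM in other fibroblastic cells. It rose there by 3.23 ± 0.29 (SE, 2 libraries; edgeR adjusted p = 7.7e-10). Against PI16 and MFAP5 fibroblasts, at 162 and 31.4 CPM, the call of CFD was lost with DESeq2 (adjusted p = 0.152). Myeloid cells had more CFD, at 1233 and 1031 CPM. C7, part of the membrane attack complex, stood at 128 and 91.6 CPM in stromal fibroblasts, against 35.7 and 35.9 CPM in other fibroblastic cells and 889 and 689 CPM in mural cells. CLU (clusterin), a secreted chaperone that holds complement back, stood at 7570.4 and 3156 CPM in stromal fibroblasts, against 2131 and 436 CPM in PI16 and MFAP5 fibroblasts, and rose by 2.43 ± 0.26 (SE, 2 libraries; edgeR adjusted p = 1.05e-07). C3 stood at 64.8 and 50.2 CPM in stromal fibroblasts. It rose by 1.80 over the other fibroblastic cells, at 12.5 and 17.5 CPM, and had no call over the PI16 and MFAP5 fibroblasts, at 90.9 and 28.2 CPM.

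Some lipid genes beside APOE rose. APOD, a lipocalin that carries small lipids, stood at 359 and 707 CPM in stromal fibroblasts, against 101 and 26.7 CPM in PI16 and MFAP5 fibroblasts and 66.3 and 96.6 CPM in other fibroblastic cells. It rose by 3.96 ± 0.37 and 2.55 ± 0.25 (SE, 2 libraries; edgeR adjusted p = 8.02e-09 and 4.03e-09). Within the lateral library alone the first difference was 1.89. Of 10 tested lipid genes 6 rose and 1 fell over the PI16 and MFAP5 fibroblasts (median 1.40), and 5 rose and 1 fell over the other fibroblastic cells (median 0.56). The risers in both were APOD, the lipoprotein lipase LPL, the cholesterol exporter ABCA1, the lipid droplet protein PLIN2 and the nuclear receptor PPARG, and FABP5 fell in both. PPARG rested on few molecules, at 12.1 and 19.7 CPM in stromal fibroblasts, against 0 and 0 CPM in PI16 and MFAP5 fibroblasts.

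Genes of reticular stroma, a type of fibroblast that supports blood and lymphoid cells, mostly rose. VCAM1, an adhesion molecule for leukocytes, stood at 428 and 325 CPM in stromal fibroblasts, against 60.6 and 42.4 CPM in PI16 and MFAP5 fibroblasts and 71.7 and 57.9 CPM in other fibroblastic cells. It rose by 2.99 ± 0.27 and 2.40 ± 0.18 (SE, 2 libraries; edgeR adjusted p = 2.63e-09 and 5.03e-11). PDGFRA, a growth factor receptor of fibroblasts, stood at 358 and 287 CPM in stromal fibroblasts, against 222 and 59.6 CPM and 92.9 and 55.8 CPM in these classes, and rose by 1.74 and 2.02. The transcription factor EBF1 and the alarmin IL33 rose in both comparisons. EBF1 stood at 287 and 286 CPM in stromal fibroblasts, against 273 and 102 CPM in PI16 and MFAP5 fibroblasts, and that call was lost with DESeq2 (adjusted p = 0.106). In all, 6 of 10 tested genes rose and 0 fell over the PI16 and MFAP5 fibroblasts (median 1.05), and 7 rose and GREM1 fell over the other fibroblastic cells (median 1.36). LEPR, a marker of reticular cells in mouse bone marrow, had 3 and 4 UMIs in stromal fibroblasts and was too low to test.

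Basement membrane genes rose as a rule, with exceptions. COL4A1, the network collagen of basement membranes, stood at 449 and 247 CPM in stromal fibroblasts, against 101 and 126 CPM in PI16 and MFAP5 fibroblasts and 51.2 and 64 CPM in other fibroblastic cells. It rose by 1.49 ± 0.26 and 2.42 ± 0.21 (SE, 2 libraries; edgeR adjusted p = 0.000177 and 7.52e-10). Mural cells had 992 and 826 CPM of it. NID1, which links laminin and collagen IV, stood at 101 and 89.6 CPM in stromal fibroblasts, against 20.2 and 23.5 CPM and 9.09 and 15.1 CPM in these classes, and rose by 2.15 and 2.86. NID1 was low in mural cells, at 13.2 and 12.2 CPM. Of 10 tested genes 6 rose and 3 fell in the first comparison and 7 rose and 2 fell in the second, with COL15A1 and NID2 lower in both.

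Most tested fibrous collagens fell against PI16 and MFAP5 fibroblasts. COL1A1, the main collagen of the meniscus, stood at 14934 and 17797 CPM in stromal fibroblasts, against 31841 and 41154 CPM in PI16 and MFAP5 fibroblasts, and was lower at -1.05 ± 0.24 on the log2 scale (SE, 2 libraries; edgeR adjusted p = 0.00282). COL12A1, a collagen on the fibril surface, stood at 251 and 165 CPM in stromal fibroblasts, against 838 and 1626 CPM in PI16 and MFAP5 fibroblasts, a log2 fold change of -2.53. Of 11 tested fibrous collagens 8 fell and 0 rose against the PI16 and MFAP5 fibroblasts (median -0.89). Against the other fibroblastic cells 3 of 9 fell and 0 rose (median -0.31). That class was partly chosen on COL1A1, COL1A2 and DCN, which stay out of this count. Of the 3 that fell, COL14A1 lost its call with DESeq2 (adjusted p = 0.133). The calls of COL1A1, COL1A2 and COL3A1 were lost when the white zone libraries were added to the fit (adjusted p from 0.115 to 0.496).

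Among small leucine-rich proteoglycans, relatives of LUM that bind collagen fibrils, 7 of 10 fell and 0 rose against the PI16 and MFAP5 fibroblasts, and 6 of 9 fell and 0 rose against the other fibroblastic cells. Their medians were -1.03 and -1.24. ASPN (asporin) stood at 664 and 420.4 CPM in stromal fibroblasts, against 2283 and 2007 CPM in PI16 and MFAP5 fibroblasts, a log2 fold change of -1.93. FMOD (fibromodulin) stood at 676 and 516 CPM in stromal fibroblasts, against 1758 and 2344 CPM in PI16 and MFAP5 fibroblasts and 3909.8 and 3263 CPM in other fibroblastic cells, and was lower at -1.72 and -2.74. DCN (decorin) had no call against the PI16 and MFAP5 fibroblasts, at 2998 and 3546 CPM in stromal fibroblasts and 4031 and 3245 CPM in PI16 and MFAP5 fibroblasts. LUM itself, part of the label and given as a description only, was at or above both other fibroblast classes.

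**Figure D3:**
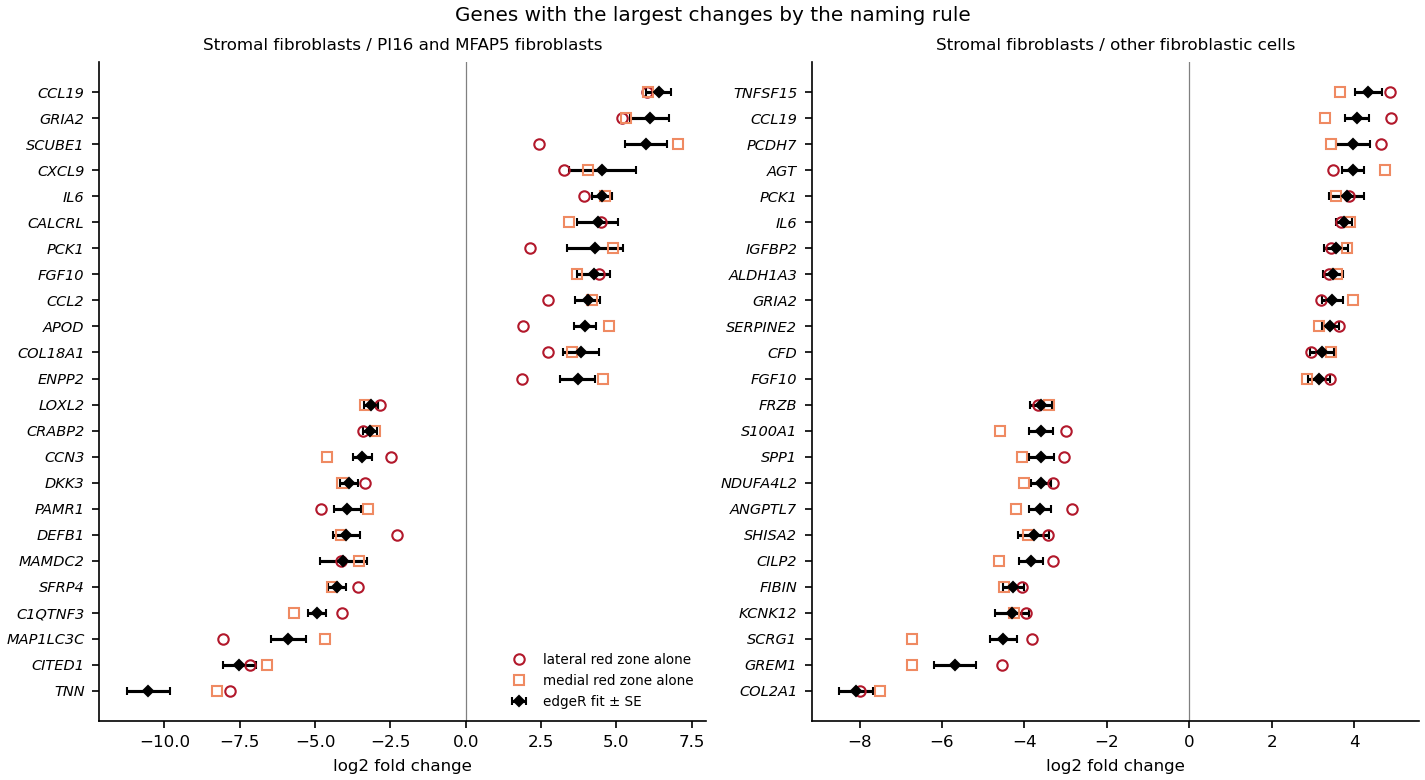
Log2 fold changes of stromal fibroblasts over PI16 and MFAP5 fibroblasts (left) and over other fibroblastic cells (right) for the 12 largest rises and falls by the naming rule; black diamonds are edgeR's estimates with their standard errors, open circles the lateral and open squares the medial library alone. CCL19 is the largest rise at left (6.40) and TNFSF15 at right (4.35). Every library lies on the same side of 0 as its estimate, since the naming rule requires the same direction in both libraries. Genes with few or no molecules in a class have estimates that depend on the prior count.

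The largest changes against the PI16 and MFAP5 fibroblasts included genes with almost no molecules in 1 class, given as ratios of UMIs with exact 95% counting intervals. GRIA2, a glutamate receptor subunit, had 212 UMIs in stromal fibroblasts and 1 in PI16 and MFAP5 fibroblasts, a ratio of 88.9 (15.8 to 3526). SCUBE1, a secreted and membrane protein, had 155 UMIs against 1, a ratio of 65 (11.5 to 2582). FGF10, a growth factor made by mesenchyme, had 141 UMIs against 3, a ratio of 19.7 (6.60 to 96.7), and ENPP2 (autotaxin), which makes lysophosphatidic acid, 115 against 3, a ratio of 16.1 (5.36 to 79.1). CALCRL, PCK1 and COL18A1 also rose, with ratios of 24.3 (6.58 to 203), 28.1 (4.87 to 1126) and 15.5 (5.17 to 76.3). These ratios pool both libraries and leave out the pairing by library, and their intervals leave out the spread between cells. Within the lateral and medial library alone the log2 values were 2.43 and 7.06 for SCUBE1, 1.87 and 4.57 for ENPP2 and 2.15 and 4.90 for PCK1. Those of GRIA2 were closer, at 5.17 and 5.31. All rest on few molecules in PI16 and MFAP5 fibroblasts. On the other side TNN (tenascin N) had 0 UMIs in stromal fibroblasts and 118 in PI16 and MFAP5 fibroblasts. With a floor of 3 counts over both libraries it was 93.8-fold lower, and the exact 95% counting interval began at 75.1-fold. The transcriptional regulator CITED1 had 1 UMI in stromal fibroblasts against 105, so that it was 250.5-fold lower (44 to 9988).

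Lower genes with ample molecules followed. SFRP4, a secreted WNT inhibitor, stood at 17.5 and 94.5 CPM in stromal fibroblasts, against 232 and 2187 CPM in PI16 and MFAP5 fibroblasts, a log2 fold change of -4.26 ± 0.30 (SE, 2 libraries; edgeR adjusted p = 1.61e-11). C1QTNF3, a secreted relative of adiponectin, stood at 32.4 and 15.8 CPM in stromal fibroblasts, against 616 and 899 CPM. CCN3, a matricellular protein, stood at 260.4 and 45.3 CPM in stromal fibroblasts, against 1596 and 1178 CPM. The retinoic acid binding protein CRABP2 stood at 68.8 and 107 CPM in stromal fibroblasts, against 808 and 919.5 CPM, and the collagen crosslinking enzyme LOXL2 at 48.6 and 45.3 CPM, against 384 and 489.6 CPM. PAMR1, DKK3 and DEFB1 (the feature ENSSSCG00000027555) were lower at -3.93, -3.87 and -3.96. MAP1LC3C and MAMDC2, with 3 UMIs each in stromal fibroblasts, were 62-fold (20.5 to 307) and 13.5-fold lower (3.91 to 72) and completed the 12 largest falls.

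The following genes were also among the 12 largest rises over other fibroblastic cells by the naming rule. IGFBP2, which binds insulin-like growth factors, stood at 923 and 381 CPM in stromal fibroblasts, against 72.4 and 26.1 CPM in other fibroblastic cells, and rose by 3.57 ± 0.29 (SE, 2 libraries; edgeR adjusted p = 1.39e-10). SERPINE2, an inhibitor of thrombin and plasminogen activators, stood at 224 and 135 CPM in stromal fibroblasts, against 15.2 and 14.7 CPM, and rose by 3.42. AGT (angiotensinogen) stood at 131 and 106 CPM in stromal fibroblasts, against 9.76 and 3.67 CPM, and ALDH1A3, which makes retinoic acid, at 123 and 92.6 CPM, against 9.76 and 7.33 CPM. PCDH7, PCK1, GRIA2 and FGF10 also rose, by 3.98, 3.82, 3.48 and 3.15. GRIA2, FGF10, PCK1, CCL19 and IL6 were among the 12 largest rises in both comparisons, which share the stromal sums.

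Cartilage matrix genes fell against other fibroblastic cells. COL2A1, the collagen of hyaline cartilage, stood at 4.05 and 0.985 CPM in stromal fibroblasts, against 1019 and 263 CPM in other fibroblastic cells, a log2 fold change of -8.08 ± 0.41 (SE, 2 libraries; edgeR adjusted p = 1.18e-14). All 12 tested cartilage matrix genes fell (median -3.61; -3.44 with low counts at their bound), among them ACAN, the aggregating proteoglycan, at -3.38 and HAPLN1, its link protein, at -2.82. CILP2 stood at 173 and 41.4 CPM in stromal fibroblasts, against 1451 and 1009 CPM, and SPP1 (osteopontin) at 117 and 49.2 CPM, against 822 and 817 CPM. GREM1, a BMP antagonist, had 2 UMIs in stromal fibroblasts against 325 and was 52.6-fold lower (14.5 to 436). FIBIN, KCNK12, SHISA2, ANGPTL7, NDUFA4L2, FRZB, SCRG1 and S100A1 were the others, and the calls of SCRG1 and S100A1 were lost with DESeq2 (adjusted p = 0.116 and 0.24). Against the PI16 and MFAP5 fibroblasts 5 of 12 cartilage genes fell and HAPLN1 rose, at 103 and 46.3 CPM in stromal fibroblasts and 10.1 and 17.3 CPM in PI16 and MFAP5 fibroblasts.

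Tendon-type genes changed with the class they were set against. MYOC and ANGPTL7, secreted proteins known from the eye and from connective tissue, rose over the PI16 and MFAP5 fibroblasts but were lower than in other fibroblastic cells. MYOC stood at 33.7 and 74.8 CPM in stromal fibroblasts, against 10.1 and 17.3 CPM in PI16 and MFAP5 fibroblasts and 208 and 407 CPM in other fibroblastic cells, and its rise was not called without the library block (adjusted p = 0.0604). MKX, a tendon transcription factor, was lower in both, at 17.5 and 16.7 CPM in stromal fibroblasts, against 50.5 and 61.2 CPM and 96.6 and 105 CPM. Of 7 tested genes 3 rose and 2 fell in the first comparison and 1 rose and 5 fell in the second.

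**Figure D4:**
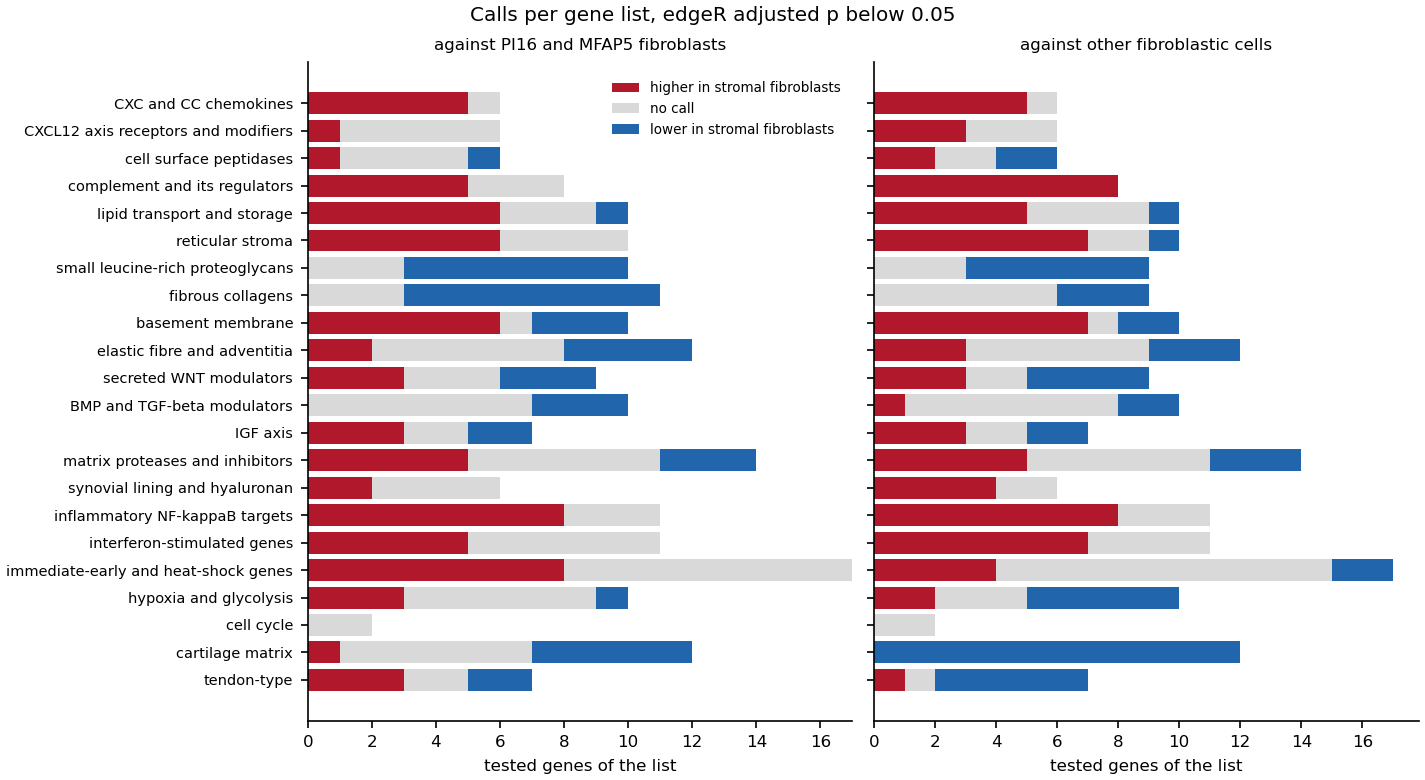
Number of tested genes in each of the 22 lists that were higher (red), not called (grey) or lower (blue) in stromal fibroblasts, against PI16 and MFAP5 fibroblasts (left) and other fibroblastic cells (right), with a call at an edgeR adjusted p below 0.05. Complement genes are 8 of 8 higher and cartilage genes 12 of 12 lower at right, and small leucine-rich proteoglycans and fibrous collagens have 0 genes higher on either side.

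Several signalling lists were mixed. In the IGF axis IGF1, IGFBP2 and IGFBP4 rose and IGFBP6 and IGFBP7 fell in both comparisons. IGF1, the growth factor itself, stood at 328 and 323 CPM in stromal fibroblasts, against 111 and 61.2 CPM in PI16 and MFAP5 fibroblasts and 122 and 116 CPM in other fibroblastic cells, and rose by 2.24 and 1.32. IGFBP6 stood at 1853 and 1177 CPM in stromal fibroblasts, against 7738 and 4136 CPM in PI16 and MFAP5 fibroblasts. The call of IGFBP2 in that comparison was lost with DESeq2 (adjusted p = 0.0859). The call of IGFBP7 against other fibroblastic cells was lost with DESeq2 (adjusted p = 0.0572) and, in edgeR, without the library block (0.0612). Of 9 tested WNT modulators 3 rose and 3 fell against the PI16 and MFAP5 fibroblasts and 3 rose and 4 fell against the other fibroblastic cells. RSPO3 and DKK2 rose while SFRP4, FRZB and DKK3 fell in both. The median of this list over the PI16 and MFAP5 fibroblasts was 0.44 as fitted and -0.53 with low counts at their bound.

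Of 10 tested BMP and TGF-beta genes 3 fell (TGFB2, TGFBI and INHBA) and 0 rose in the first comparison. In the second 2 fell (TGFB2 and INHBA) and CHRDL1 rose. The first call of TGFB2 was lost with DESeq2 (adjusted p = 0.205). In edgeR it was lost without the count filter (adjusted p = 0.135), without the library block (0.105) and with all 4 libraries (0.209). The second call of TGFB2 was lost with DESeq2 (adjusted p = 0.0639). In edgeR the call of CHRDL1 was lost without the library block (adjusted p = 0.0834) and with 10 or more UMIs of the selecting genes (0.0704). INHBA, the activin subunit, stood at 44.5 and 14.8 CPM in stromal fibroblasts, against 212 and 119 CPM in PI16 and MFAP5 fibroblasts and 163 and 123 CPM in other fibroblastic cells. Of 14 matrix proteases and inhibitors 5 rose and 3 fell in each comparison. ADAMTS4, which cuts aggrecan, stood at 318 and 305 CPM in stromal fibroblasts, against 60.6 and 64.3 CPM and 76.1 and 106 CPM, and rose by 2.41 and 1.66. TIMP3, an inhibitor of such proteases, stood at 329 and 229 CPM in stromal fibroblasts, against 758 and 679 CPM and 949.5 and 883 CPM, and fell in both.

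Elastic fibre and adventitial genes also went both ways. EFEMP1 (fibulin 3) stood at 614 and 725 CPM in stromal fibroblasts, against 323 and 173 CPM in PI16 and MFAP5 fibroblasts and 189 and 149 CPM in other fibroblastic cells, and rose by 1.71 and 1.88. The second call was lost when the white zone libraries were added (adjusted p = 0.175). SEMA3C, a guidance cue and a marker of adventitial fibroblasts, stood at 109 and 133 CPM in stromal fibroblasts, against 475 and 320.1 CPM and 355 and 337 CPM, and was lower at -1.51 and -1.63. Of 12 tested genes 2 rose and 4 fell in the first comparison and 3 rose and 3 fell in the second. CD34, a surface protein of vascular and adventitial cells, stood at 47.2 and 70.9 CPM in stromal fibroblasts and 50.5 and 51.8 CPM in PI16 and MFAP5 fibroblasts, with no call (edgeR adjusted p = 0.344).

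Genes of the synovial lining were few. PDPN (podoplanin) stood at 193 and 252 CPM in stromal fibroblasts, against 90.9 and 144 CPM in PI16 and MFAP5 fibroblasts and 121 and 108 CPM in other fibroblastic cells. It rose by 0.86 and 0.82, and both calls were lost with DESeq2. Of 6 tested lining and hyaluronan genes 2 (PDPN and HBEGF) rose over the PI16 and MFAP5 fibroblasts and 4 (PDPN, HAS1, CD44 and TNFAIP6) over the other fibroblastic cells, and 0 fell. With DESeq2 the calls of HBEGF, TNFAIP6 and HAS1 were lost as well (adjusted p = 0.118, 0.178 and 0.79). In edgeR the TNFAIP6 call was also lost without the count filter (adjusted p = 0.0629), without the library block (0.236) and with all 4 libraries (0.185). In cells of 1500 or more UMIs it was lost too (0.066). Of 11 interferon-stimulated genes 5 and 7 rose and 0 fell. IFI6, an interferon-induced mitochondrial protein, stood at 7549 and 7697 CPM in stromal fibroblasts, against 2829 and 2253 CPM and 1968 and 1980.3 CPM, and rose by 1.71 and 1.82.

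Response genes differed by comparison. Of 17 immediate-early and heat-shock genes 8 rose and 0 fell over the PI16 and MFAP5 fibroblasts, and 4 rose and 2 fell over the other fibroblastic cells. ATF3, a stress-induced transcription factor, stood at 803 and 797 CPM in stromal fibroblasts, against 434 and 246 CPM and 276 and 389 CPM in these classes. Such genes also respond to tissue digestion, and the part of digestion was not tested. Among 10 tested genes of hypoxia and glycolysis, 3 rose and 1 fell in the first comparison, and 2 rose and 5 fell in the second. In the first the rise of HK2 lost its call with DESeq2 (adjusted p = 0.153). In edgeR it was lost without the library block (adjusted p = 0.0505) and with all 4 libraries (0.0866). With 10 or more UMIs of the selecting genes it was lost too (0.0634). ADM (adrenomedullin), a vessel-widening peptide, rose by 2.35 and 1.11, the second not called when the white zone libraries were added (adjusted p = 0.104), while LDHA, a glycolytic enzyme, was lower than in other fibroblastic cells at -1.24. Only 2 of 14 cell cycle genes had enough molecules to test, TOP2A and PCNA, and neither was called in these comparisons.

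The UMIs of some secreted signals were unevenly spread over the cells. In the lateral red zone 23 of 398 stromal fibroblasts held 50% of the CCL19 UMIs, and 1 cell held 211 of the 1535. In the medial red zone 48 of 582 cells held 50% of them. For IL6 it was 20 lateral and 25 medial cells, for CFD 12 and 47, and for CXCL14 92 and 120. After thinning to 1000 UMIs per cell, which kept 341 lateral and 502 medial red zone cells, CCL19 was detected in 44% and 48.4% of stromal fibroblasts, against 2.37% and 1.55% of endothelial cells. Without thinning it was detected in 52.3% and 55.2% of the stromal fibroblasts. LUM was detected in 84.2% and 78.5% of thinned stromal fibroblasts and IL6 in 24% and 13.1%, against 4.41% and 4.66%, and 11.2% and 8.2%, of endothelial cells. Only endothelial cells are set beside them here, not the fibroblast classes most like them, and mural cells had higher CCL19 levels.

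Within the red zone the cells with CXCL12 and those without it differed in a few genes. Stromal fibroblasts with 3 or more CXCL12 UMIs (146 lateral, 256 medial) were set beside those with 0 (121 and 104), as a description with no test. The first had a median of 1856 and 1803.5 UMIs and the second 1506 and 1456.5. Of 1152 genes with at least 120 UMIs, 13 (1.13%) passed 2-fold in the same direction in both libraries, 7 higher (0.608%) and 6 lower (0.521%) in the cells with CXCL12. C7 stood at 237 and 127 CPM in cells with CXCL12, against 19.4 and 18.4 CPM in cells without. IL6 stood at 656 and 245.5 CPM in cells with CXCL12, against 204 and 61.5 CPM. ALDH1A3, EFEMP1, LPL, HTRA3 and PCDH9 were also higher.

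Lower in cells with CXCL12 were S100A4 and S100A6, calcium-binding proteins, with CCN3, PTN, THBS4 and SFRP2. S100A4 stood at 176 and 75.7 CPM in cells with CXCL12, against 758 and 449 CPM in cells without, and SFRP2, a WNT modulator, at 656 and 1092 CPM, against 1449 and 2674 CPM. CCL19 stood at 3468 and 1845 CPM in cells with CXCL12, against 778 and 1107 CPM in cells without, and did not pass 2-fold in the medial library. CXCL14 itself was lower in cells with CXCL12, at 4365 and 3930 CPM, against 5746 and 6763 CPM, and both genes enter the sum that chose the cells.

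Medial and lateral stromal fibroblasts of the red zone were compared as values, with 1 library each and no test. Of 3865 genes with 30 or more UMIs in either library, 55 were over 2-fold higher (1.42%) and 91 over 2-fold lower (2.35%) in the medial cells. The exact 95% counting interval lay wholly beyond 2-fold for 6 of these 55 and 23 of these 91. Such intervals take each UMI as independent and leave out the spread between cells. SFRP4 stood at 94.5 CPM in medial stromal fibroblasts, against 17.5 CPM in lateral ones (ratio 5.39, interval 3.01 to 10.5). Other fibroblastic cells showed the same order, with 319.9 CPM (medial) and 26.6 CPM (lateral), as did COL6A6, a collagen VI chain. PHEX, a peptidase known from bone, stood at 31.5 CPM in medial and 6.75 CPM in lateral stromal fibroblasts, beside 1.22 CPM in medial and 2.69 CPM in lateral other fibroblastic cells. TBX5, FABP4, APOA1, PRDM8, FMO2, SPAG8 and SCFD1 completed the 10 largest rises.

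MMP3 (stromelysin), a matrix-degrading enzyme, stood at 323 CPM in medial stromal fibroblasts, against 1322 CPM in lateral ones, 4.09-fold lower (3.61 to 4.65), beside 690.3 CPM in medial and 1080.2 CPM in lateral other fibroblastic cells. CCN3 stood at 45.3 CPM in medial cells, against 260.4 CPM in lateral ones. STMN2, a microtubule regulator known from neurons, stood at 7.88 CPM in medial cells, against 68.8 CPM in lateral ones, and AMCF-II, a pig CXC chemokine, at 7.88 CPM, against 51.3 CPM. SFRP1 stood at 40.4 CPM in medial cells, against 134 CPM in lateral ones, with the same order in other fibroblastic cells, 35.5 CPM in medial and 112 CPM in lateral ones. ADIRF, CILP2, NDUFA4L2 and RGS2 were also among the 10 largest falls. With a single library on each side, the meniscus and the library cannot be told apart.

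The 57 lateral white zone cells shared some of the markers with the red zone cells and lacked others. The medial white zone, with 7 cells and 11704 UMIs, was too small for the planned test between zones, so values of the lateral libraries are compared, 741041 UMIs in the red and 136766 in the white zone. CXCL14 stood at 4917 CPM in stromal fibroblasts of the lateral red zone, against 5294 CPM in the lateral white zone. CXCL12 stood at 1405 CPM in the red zone, against 205 CPM in the white zone, and MME at 186 CPM, against 7.31 CPM (1 UMI). Of the CXCL14, CXCL12 and MME molecules of the lateral white zone cells, CXCL14 supplied 96.1%, and CXCL12 was found in 20 of 57 cells. IGFBP2 stood at 923 CPM in the red and 746 CPM in the white zone, PDGFRA at 358 and 299.8 CPM, VCAM1 at 428 and 336 CPM and CYP1B1, an enzyme of steroid and retinoid metabolism, at 1352 and 1455 CPM. These 4 differed by less than 2-fold. In other fibroblastic cells of the lateral white zone IGFBP2 stood at 7.25 CPM, PDGFRA at 41.6 CPM, VCAM1 at 19.2 CPM and CYP1B1 at 400.0 CPM.

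**Figure D5:**
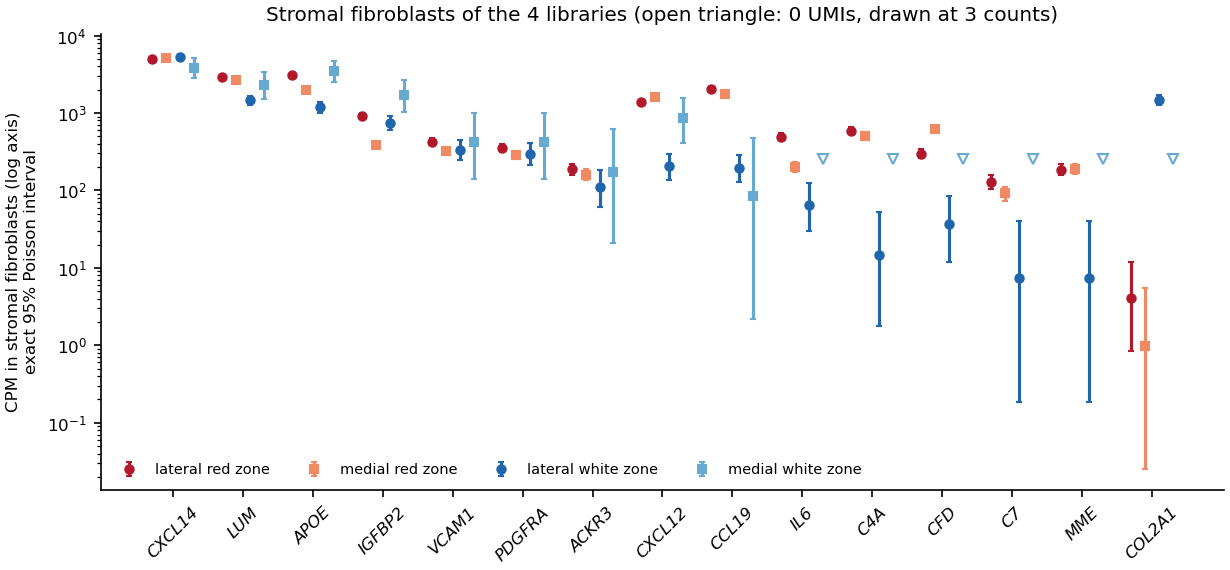
Levels of 15 genes in stromal fibroblasts of the 4 libraries, in CPM on a log axis with exact 95% Poisson intervals; open triangles mark 0 UMIs, drawn at the level of 3 counts. CXCL14, VCAM1 and PDGFRA are close in all libraries, CCL19, IL6, C4A, CFD, C7 and MME are lower in the lateral white zone than in both red zone libraries, and COL2A1 is higher there.

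Of 3113 genes with 30 or more UMIs in either lateral library, 559 were over 2-fold higher (18.0%) and 79 over 2-fold lower (2.54%) in red zone cells. As the red zone sum held more UMIs, nearly all of these genes reached the limit there and far fewer in the white zone sum, so the numbers of higher and lower genes are not comparable. The counting interval lay wholly beyond 2-fold for 65 of these 559 and 27 of these 79. It leaves out the spread between cells, of which the white zone library had 57. CCL19 stood at 2071 CPM in the red zone, against 197 CPM in the white zone (ratio 10.5, interval 7.18 to 16), and IL6 at 494 CPM, against 65.8 CPM. TNXB (tenascin X) had 408 UMIs in the red zone and 1 in the white zone, a ratio of 75.3 (13.4 to 2981). PLAU (urokinase) had 602 UMIs against 3, a ratio of 37 (12.6 to 180.1), and C4A 440 against 2, a ratio of 40.6 (11.2 to 336). SFRP2 stood at 923 CPM in the red zone, against 73.1 CPM in the white zone, and POSTN (periostin), a matricellular protein, at 617 CPM, against 51.2 CPM. NPTX1, C7, RPIA, SMAD3 and SIX4 had 1 UMI each in the white zone cells and ratios from 12.4 to 26.

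COL2A1 and other genes had lower values in red zone than in white zone stromal fibroblasts, and values of white zone endothelial cells are given beside them. COL2A1 had 3 UMIs in the red zone and 201 in the white zone, 363-fold lower (122 to 1775). It stood at 1469.7 CPM in stromal fibroblasts of the lateral white library, against 1591 CPM in its endothelial cells, which should lack it, and the part of free RNA in this difference was not tested. ACAN, SCRG1 and MT1X likewise stood at 585, 241 and 768 CPM in white zone stromal fibroblasts, at or below their 706, 261 and 776 CPM in white zone endothelial cells. SPP1 and HAPLN1 stood at 2311 and 563 CPM in white zone stromal fibroblasts and 1737 and 496 CPM in white zone endothelial cells. CP and LCN2 were at 409 and 241 CPM in white zone stromal fibroblasts and 204 and 210 CPM in white zone endothelial cells. The feature annotated as HPS5 stood at 9333 CPM in red zone stromal fibroblasts, against 114875 CPM in white zone ones, with 27201 CPM in white zone endothelial cells and 136354 CPM in other fibroblastic cells there. Whether this feature takes reads of an overlapping gene was not tested. ADIRF, a factor known from fat cells, stood at 87.7 CPM in the red zone, against 1141 CPM in the white zone, above the 60.9 CPM of other fibroblastic cells and the 140 CPM of endothelial cells in the white zone. With 1 library on each side these differences are between libraries, and zone and library cannot be told apart.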

How the data were processed

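The deposited files hold UMI counts per gene and barcode, made by the authors with Cell Ranger 6.1.2 on Sscrofa11.1, per the submitters' processing notes. The filters applied before deposit are not given in the sources used here. Of 21280 features, 14811 had a symbol in the files and 694 took one from a reference gene table. The genes, lists and classes described were chosen with earlier results of these data known. Barcodes with 200 or more genes were classed by the stated limits with Python 3.11.15 and scanpy 1.11.5. No doublets were removed in the main analysis. Counts were summed per library and class, and stromal fibroblasts and both other fibroblast classes of the red zone were fitted together in edgeR 4.0.16 (filterByExpr, TMM, quasi-likelihood, terms for class and library, 2 residual degrees of freedom). The spread of each gene was moderated towards that of all genes, with 26.2 prior degrees of freedom. The p-values and standard errors thus rest mostly on this pooled spread. Standard errors come from each fold change and its F statistic. The library block pairs classes of the same library. Named genes were the 12 largest changes per direction among called genes with the same direction in both libraries and a mean of at least 20 CPM over the libraries compared, up to 4 genes of lowest p per list, and a short set given whatever its result. CYP1B1, CXCR4 and other genes outside this rule were named after their values were seen, and 1 gene that met the rule is not reported here. In simulated counts of 6833 genes, the comparison with PI16 and MFAP5 fibroblasts recovered 28 of 94 genes changed 2-fold and 81 of 96 changed 4-fold, and the comparison with other fibroblastic cells 65 of 94 and 90 of 96. Alternatives were DESeq2 1.42.0, other scaling, filters, gates and depths, and fits without the block.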

Additional observations from a re-analysis of the deposited data

Results flagged for a closer look

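For COL14A1, a collagen on the surface of fibrils, stromal fibroblasts differed from other fibroblastic cells in opposite directions in the zones. On the log2 scale this difference was -0.7842 for lateral and -0.3503 for medial red zone cells, against 0.2118 for lateral and 0.7936 for medial white zone cells. IGFBP6, which binds insulin-like growth factor 2, had log2 differences of -0.3383 (lateral) and -0.9626 (medial) for the red zone, against 0.3777 (lateral) and 0.544 (medial) for the white zone. These differences between zones were not tested, and the medial white zone values rest on 7 cells. They are ratios of CPM without TMM scaling. With it the red zone values of COL14A1 were -1.02 (lateral) and -0.381 (medial). The red zone call of COL14A1 was lost with DESeq2 (adjusted p = 0.133). In edgeR it was lost without the library block (adjusted p = 0.105), with all 4 libraries (0.273) and in cells of 1500 or more UMIs (0.0789).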

How the results depend on the processing

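Against PI16 and MFAP5 fibroblasts 1104 genes were called in the reported fit, 401 with DESeq2 and 663 with all 4 libraries, of which 648 were among the 1104. Against other fibroblastic cells 1386 were called, and 490 with DESeq2. Without the replicate block, which pairs classes of 1 library, 690 and 882 genes were called. Other settings gave 926 to 1080 and 1063 to 1401. The shares of stromal fibroblasts moved with the threshold: with 3 or more UMIs they were 9.92% and 11.6% in the red zone and 1.33% and 0.269% in the white zone, and with 10 or more 3.39%, 4.25%, 0.420% and 0.0256%. Without limits on other cells' genes they were 10.8% and 15.2% in the red zone, and thinning gave 6.15% in the lateral red and 0.489% in the lateral white zone. Log2 values of 8 genes changed sign against PI16 and MFAP5 fibroblasts. Leaving out 1 red zone library, lateral or medial, gave -1.03 to 2.08 for DPP4, -0.20 to 0.26 for PCNA, -0.085 to 0.52 for CD34, -0.42 to 0.89 for C3, -0.090 to 2.77 for C4A and -0.30 to 0.21 for DCN. DCN was 0.057 without a count filter and 0.27 in cells of 1500 or more UMIs, THY1 was 0.24 with all 4 libraries, and with 10 or more UMIs UGDH was 0.026 and C3 -0.0772. Against other fibroblastic cells PCNA was -0.030 with all 4 libraries. The cause was not tested. Counts of calls without a red zone library, and alternatives of the test between zones, were not run, since no residual degrees of freedom or fewer than 20 cells remained.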
